A study of Mus musculus with 4 samples.

Results

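Interferon-stimulated genes were examined in mouse lungs that carried small cell lung cancer (SCLC), a neuroendocrine lung tumour, after treatment with an inhibitor of the kinase CDK7, with an antibody against PD-1, or with both. The genes were 43 members taken by symbol from the 31053 genes of the deposited feature table, and all 43 were found in it. Of these, 11 form the list of interferon gamma-induced GTPases (Igtp, Irgm1, Irgm2, Iigp1, Gbp2, Gbp3, Gbp4, Gbp5, Gbp6, Gbp7 and Gbp9), and 6 are type I interferon genes (Ifit1, Ifit2, Ifit3, Oasl2, Oas1a and Isg15). A further 6 are transcription factors or feedback regulators, 13 are sensors of nucleic acid or antiviral effectors, and 7 are other interferon-induced genes. The GTPase Ifi47 is among these 7, so sums of the GTPase list leave it out. No member served as a marker for naming cells, and the rule uses no measured value.

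Tumour cells were implanted orthotopically, that is, in the lung itself, and the tumours were followed by MRI. The combination group received both agents, the YKL-5-124 group received the CDK7 inhibitor at 10 mg/kg on weekdays, and the anti-PD-1 group received 200 µg of antibody clone 29F.1A12 per mouse on Mondays, Wednesdays and Fridays. The control group received vehicle and an isotype IgG. PD-1 is an inhibitory receptor of T cells, and CDK7 is a kinase of both the cell cycle and transcription by RNA polymerase II. Lungs were perfused, digested whole and sorted for live cells by DAPI exclusion, so that normal lung and immune cells were sequenced beside tumour cells. Each group is 1 library of the 10x 3′ v2 chemistry, which counts unique molecular identifiers (UMIs) at the 3′ end of transcripts. The sources used here do not give the number of animals per library, their strain and age, or the tumour line. With 1 library per group there is no measure of the spread between animals. No test of a treatment was made, and every interval below is a 95% interval that covers counting error only.

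Interferons are secreted signals against infection that also shape anti-tumour immunity. Type I interferons act through the receptor chains Ifnar1 and Ifnar2 and the kinases Jak1 and Tyk2 on a complex that holds Stat2 and Irf9, which binds the interferon-stimulated response element (ISRE). Interferon gamma, made mainly by T and NK cells, acts through Ifngr1 and Ifngr2 and the kinases Jak1 and Jak2 on factors that bind the gamma-activated site (GAS). The guanylate-binding proteins (Gbp) and immunity-related GTPases (Irgm1, Irgm2, Igtp, Iigp1) take part in the defence of cells against intracellular microbes. Ifit proteins bind foreign RNA, Oas proteins sense double-stranded RNA, and Isg15 is a ubiquitin-like modifier. Many of these genes answer to both kinds of interferon, so the 2 lists differ in emphasis and not in kind.

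Promoters were read from RefSeq (GRCm38.p6) for 33 members, as windows of 300 bases around the start site, and 10 members had no window in the table: Iigp1, Gbp4, Gbp6, Gbp9, Ido1, Zbp1, Usp18, Parp14, Parp9 and Rtp4. The 150 bases before the start site are shown for 4 of the members on which the results below turn, 1 GTPase, 2 type I genes and 1 feedback gene, so that their response elements can be set side by side. Each is written 5′ to 3′ on the strand of the gene, with matches to an ISRE-like motif (GAAANNGAAA, either strand) or a GAS-like motif (TTCNNNGAA) in capitals.
Igtp, chr11:58199406-58199555, plus strand: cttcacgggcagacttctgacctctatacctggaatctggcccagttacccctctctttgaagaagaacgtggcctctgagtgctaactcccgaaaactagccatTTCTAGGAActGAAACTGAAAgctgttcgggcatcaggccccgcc
Isg15, chr4:156200819-156200968, minus strand: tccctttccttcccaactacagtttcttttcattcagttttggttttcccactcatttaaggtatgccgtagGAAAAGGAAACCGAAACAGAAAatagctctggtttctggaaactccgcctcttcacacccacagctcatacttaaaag
Ifit1, chr19:34640739-34640888, plus strand: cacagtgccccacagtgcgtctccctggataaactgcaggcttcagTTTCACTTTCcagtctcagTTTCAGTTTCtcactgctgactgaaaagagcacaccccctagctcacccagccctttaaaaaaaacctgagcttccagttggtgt
Socs1, chr16:10785537-10785686, minus strand: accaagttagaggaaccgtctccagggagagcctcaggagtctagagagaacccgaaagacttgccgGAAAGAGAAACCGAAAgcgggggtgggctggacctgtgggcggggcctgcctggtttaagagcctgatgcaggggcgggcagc

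The Igtp window held a GAS-like match that began at -45 from the start site and an ISRE-like match at -34. Isg15 held 3 overlapping ISRE-like matches at -78, -72 and -66, and Socs1 held 2 that overlap, at -83 and -77. In Ifit1 both ISRE-like matches, at -104 and -85, lay on the opposite strand and appear as their reverse complement. Of the 33 members with a window, 19 (57.6%) held an ISRE-like match, among them 7 of 7 GTPases and 4 of 6 type I genes, against 3.44% of all 32851 promoter windows. The GAS-like motif was found in 11 of 33 members (33.3%), in 4 of 7 GTPases and in 2 of 6 type I genes, against 8.30% of all windows. The motifs are short, and a match describes letters and not a bound site.

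The libraries held 22950622, 22357198, 17329001 and 22384282 UMIs in the combination, YKL-5-124, anti-PD-1 and control groups. A barcode counted as a cell from 500 UMIs and 300 genes upwards, if no more than 10% of its UMIs were mitochondrial. This gave 4042, 4152, 2736 and 3481 cells with medians of 2239, 2001, 1939 and 1940 UMIs in the same order. Cells were assigned to a lineage where at least 2 of its fixed markers were detected and no other lineage came close, and 12166 of 14411 cells were assigned. In 5 lineages every library had at least 100 cells and was compared. These were tumour-like cells, with neuroendocrine markers such as Chga and Calca (635, 712, 691 and 818 cells in the combination, YKL-5-124, anti-PD-1 and control libraries), T cell-like cells (988, 686, 552 and 805), NK cell-like cells (365, 252, 282 and 307), B cell-like cells (499, 699, 424 and 638) and monocyte- or macrophage-like cells (511, 455, 182 and 161). Clusters built without the members gave the same class to at least 99% of gated T, NK and B cell-like cells, but to only 67.1% of tumour-like cells, of which 933 of 2856 fell in an unnamed cluster of shallow barcodes.

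Barcodes were shared between libraries far more often than their number alone would give. In the combination, YKL-5-124, anti-PD-1 and control libraries 565, 523, 619 and 544 kept barcodes also passed in another library, against 56.8, 57.8, 43.3 and 51.6 expected from the number of barcodes in the files. Many had at least 10 times as many UMIs in the other library. These made up 35.4%, 26.5%, 39.4% and 25.9% of the tumour-like cells in that order, and only 10, 3, 12 and 5 cells of all other lineages together, so that they fall mainly among tumour-like cells. They are shallow, with medians from 823 to 850 UMIs, and add little to summed levels. Their origin was not tested. Free RNA, read from barcodes with 10 to 100 UMIs, gave the GTPase list 215, 164, 181 and 184 counts per 1000000 UMIs (CPM) and the type I list 194, 155, 125 and 129 CPM in the combination, YKL-5-124, anti-PD-1 and control libraries. A level at or below these values is not read as expression by the cells themselves.

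Levels are UMIs of a gene summed over the cells of a lineage, scaled to CPM of that lineage and library. Because each molecule is tagged once at its 3′ end, they are not divided by transcript length. A member counted as measured in a lineage where its mean over the 4 libraries was at least 10 CPM. By this rule 21 members were measured in tumour-like cells, 38 in T cell-like, 30 in NK cell-like, 29 in B cell-like and 34 in monocyte- or macrophage-like cells. Of the 43, 17 were measured in each of the 5 lineages, among them Igtp, Irgm1, Gbp7, Isg15, Irf1, Bst2 and Samhd1. Ifi44 and Ido1 were measured in none of the 5.

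The lineages differed in which member led. In monocyte- or macrophage-like cells Ifitm3, a membrane protein that blocks viral entry, reached 5875, 5112, 5385 and 5439 CPM in the combination, YKL-5-124, anti-PD-1 and control libraries. Samhd1, which removes the nucleotides that viruses need, led T cell-like cells with 319, 287, 298 and 295 CPM and B cell-like cells with 344, 429, 354 and 415 CPM in the same order. NK cell-like cells had most of the GTPase Ifi47, at 158, 172, 146 and 135 CPM. These leaders lay close together across the 4 libraries of their lineage. The GTPase list was highest in T cell-like cells among the 5 lineages, at 446.5, 429.5, 426.3 and 538.1 CPM, and the type I list in monocyte- or macrophage-like cells, at 538.5, 404.5, 395.4 and 445.7 CPM.

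**Figure D1:**
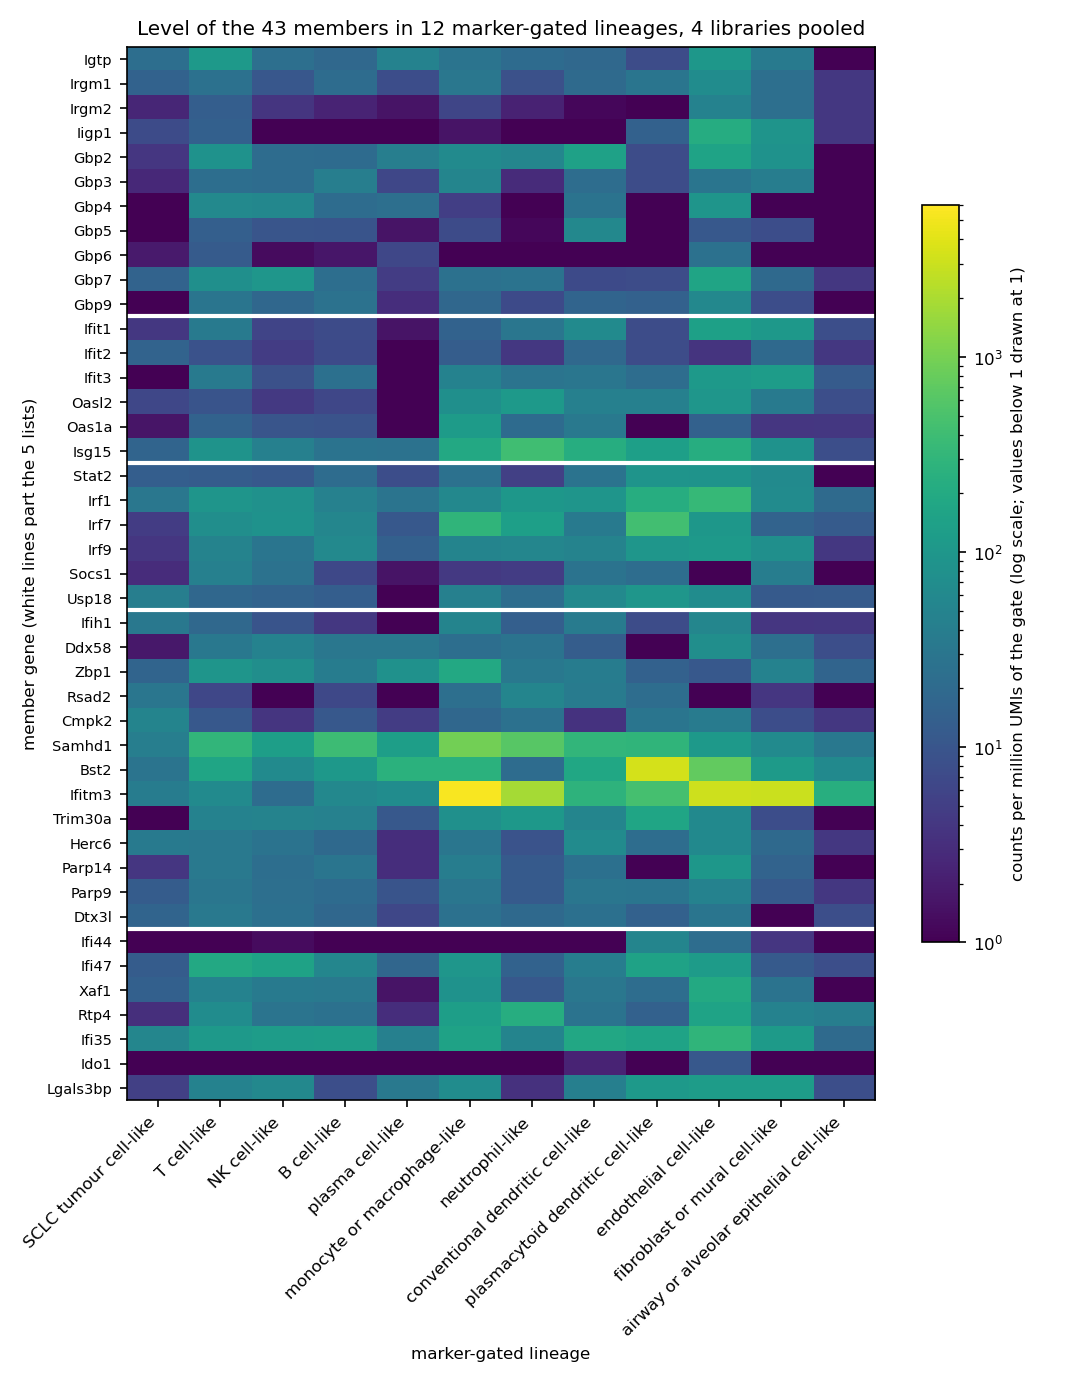
Pooled level of each of the 43 members (rows, parted by white lines into GTPases, type I genes, factors and feedback, sensors and effectors, and others) in 12 marker-gated lineages (columns), in CPM on a log colour scale over the 4 libraries. Ifitm3 is brightest in monocyte- or macrophage-like, endothelial-like and fibroblast- or mural-like cells, Bst2 in plasmacytoid dendritic-like cells, and the GTPases in T cell-like and endothelial-like columns.

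Smaller lineages had their own leaders, given over the pooled cells because some libraries held few. Endothelial-like cells (60, 19, 15 and 67 cells in the combination, YKL-5-124, anti-PD-1 and control libraries) carried Ifitm3 at 3134 CPM, Bst2 at 746, Irf1 at 338, Ifi35 at 298 and Isg15 at 228. The GTPase list there came to 903, 785, 1021 and 1095 CPM in those libraries, and Iigp1, at no more than 22.9 CPM in any library of T cell-like cells, was at 223, 231, 213 and 215 CPM. Plasmacytoid dendritic-like cells (36 cells in all) had Bst2, also called tetherin and a known surface marker of that lineage in the mouse, at 3462 CPM and Irf7, the factor that drives type I interferon production in it, at 434 CPM. Fibroblast- or mural-like cells had Ifitm3 at 2993 CPM, conventional dendritic-like cells had Samhd1 at 311 CPM, airway-like cells had Ifitm3 at 234 CPM and plasma cell-like cells had Bst2 at 255 CPM. Neutrophil-like cells had Ifitm3 at 1851 CPM, Samhd1 at 632 CPM and Isg15 at 412 CPM.

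For treatment, each group was set against control, and a member passed where log2 of the ratio of levels, with 10 CPM added to both, reached 1.5-fold. The rule goes by size alone. The question the groups pose is whether either agent, or both together, goes with a different interferon response in the tumour and in the immune cells around it.

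**Figure D2:**
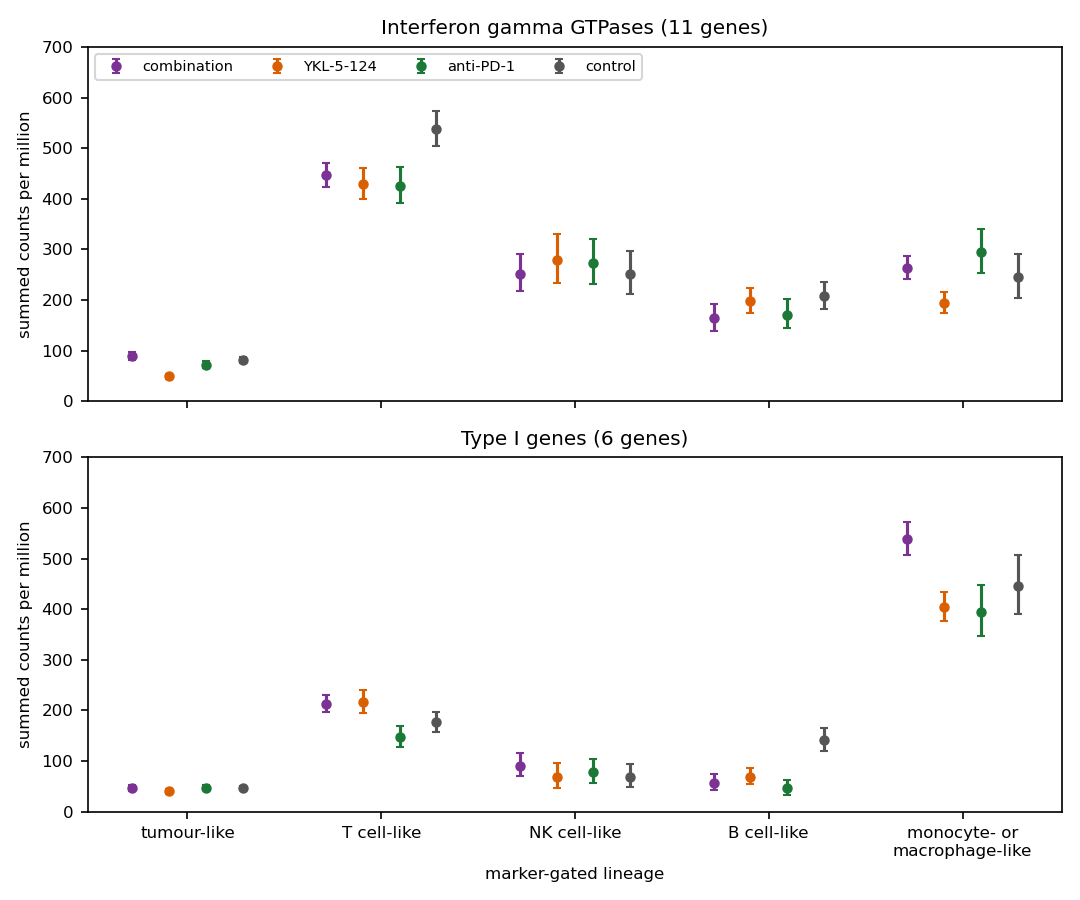
Summed level of the 11 interferon gamma GTPases (top) and the 6 type I genes (bottom) in CPM, by marker-gated lineage and library, with exact Poisson 95% intervals for counting error. T cell-like cells are highest for the GTPases, with control at 538.1 above the other libraries, and control stands apart at 141.3 in the type I list of B cell-like cells.

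In tumour-like cells members stood at low levels, and no measured member passed the size rule in any treatment. Ifi35, an interferon-induced regulator of signalling, was at 52.7, 48.3, 53.3 and 59.8 CPM in the combination, YKL-5-124, anti-PD-1 and control libraries. Cmpk2, a nucleotide kinase encoded beside Rsad2, was at 53.5, 54.5, 44.98 and 48.6 CPM, and Samhd1 was at 45.4, 46.3, 35.6 and 38.6 CPM. Of these only Cmpk2 lay above its free RNA level, which was 16.2, 23.2, 20.6 and 22.2 CPM. Usp18, the protease that removes Isg15 and restrains type I signalling, did so too, with 41.5, 45.4, 39.2 and 38.8 CPM against 28.9, 26.3, 19.6 and 23.4 CPM in free RNA, as did Ifih1, the RNA sensor MDA-5, with 37.4, 30.6, 32.0 and 30.2 CPM against 19.6, 17.3, 20.6 and 17.5 CPM. Of all 8939 genes measured in tumour-like cells, 1.4% passed 1.5-fold in the combination, 0.369% in YKL-5-124 and 0.459% in anti-PD-1 against control, so 0 of 21 members is near the background. Median log2 ratios of the members were 0.02, -0.03 and -0.03, against 0.01, 0.03 and 0.01 for all genes.

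The lowest ratios under YKL-5-124 were those of Igtp, Isg15 and Ifi47, and none passed 1.5-fold. Igtp had 29.8, 14.4, 24.0 and 24.6 CPM in the combination, YKL-5-124, anti-PD-1 and control libraries, so that YKL-5-124 stood below the other libraries at 0.586 of control (0.462 to 0.739). With the 10 CPM added, its log2 ratio of -0.50 stayed short of 1.5-fold. Isg15 had 18.6, 11.2, 18.9 and 16.9 CPM in that order, and YKL-5-124 was again the lowest. A single anti-PD-1 cell held 42 of its 125 Isg15 UMIs there, and without the highest cell of each library Isg15 was at 17.6, 10.7, 12.6 and 16.0 CPM. Igtp in the same setting was at 26.9, 13.6, 20.1 and 23.3 CPM. Ifi47 had 13.8, 9.72, 12.4 and 14.5 CPM. Irgm1 had 18.6, 14.8, 13.1 and 15.3 CPM, and Gbp7 had 18.6, 13.1, 13.1 and 17.6 CPM, with no such gap. Irf1, a factor induced by interferon gamma, was level at 32.3, 31.0, 31.1 and 31.8 CPM, as was Bst2 at 28.6, 25.04, 27.8 and 31.9 CPM. Ifitm3 was at 44.3, 40.8, 36.1 and 33.9 CPM, in a tissue whose free RNA held it at 713, 695, 471 and 438 CPM. Free RNA held Igtp at 52.3, 32.2, 40.5 and 40.5 CPM, likewise lowest in YKL-5-124 and highest in the combination. It held Isg15 at 116, 89.2, 74.5 and 74.9 CPM and Ifi47 at 87.9, 74.1, 83.0 and 64.2 CPM. The tumour-like levels of Igtp, Isg15 and Ifi47 lay below these and are not read as expression by the cells themselves. The part of free RNA in them was not tested.

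Summed over the list, GTPases in tumour-like cells were at 89.6, 49.5, 72.6 and 82.2 CPM in the combination, YKL-5-124, anti-PD-1 and control libraries, all below their level in free RNA. The ratio to control was 1.09 in the combination (0.978 to 1.22), 0.603 in YKL-5-124 (0.531 to 0.683) and 0.883 in anti-PD-1 (0.787 to 0.990). Between the combination and YKL-5-124 it was 1.81 (1.59 to 2.07), and Igtp alone of the 21 members passed 1.5-fold there, against 0.213% of all genes. The type I list differed less, at 46.3, 40.1, 47.7 and 46.7 CPM, also below its level in free RNA. Its ratios to control were 0.991, 0.858 (0.739 to 0.995) and 1.02.

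These GTPase UMIs lay in few cells. The 5 cells with the most held 39.1%, 12.1%, 38.5% and 24.7% of the list's UMIs in the combination, YKL-5-124, anti-PD-1 and control libraries, and the highest cell held 82, 12, 97 and 99 UMIs. Cells with at least 10 GTPase UMIs numbered 6, 3, 4 and 13. Pooled, these 26 cells held 226 UMIs of Igtp against 471 in all other tumour-like cells, 196 of Iigp1 against 25, and 81 of Gbp2 against 38. They thus carried most of the Iigp1 and Gbp2 of the tumour gate. They were deep, with medians of 20064, 18403, 30086 and 45102 UMIs, and 3, 2, 4 and 12 of them shared their barcode with another library. None was among the cells removed for a high doublet score, and they held 7, 1, 3 and 46 UMIs of monocyte markers. The part of shared barcodes and of other cells' RNA in them was not tested.

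Without the 5 highest cells of each library the ratios to control were 0.884, 0.703 and 0.726 in the combination, YKL-5-124 and anti-PD-1. The combination thus turned from above to below control, and its ratio to YKL-5-124 was 1.26. Without shared barcodes the ratios to control were 1.42, 0.623 and 0.702, and without only the barcodes at least 10 times deeper elsewhere they were 1.09, 0.578 and 0.900. With every cell weighted equally YKL-5-124 was at 0.855 of control and the combination at 1.35 times YKL-5-124. YKL-5-124 was below control in each of these settings. In cells thinned to 800 UMIs, with 94, 78, 105 and 90 shallower cells left out, 6.10%, 2.84%, 5.29% and 4.95% held a GTPase UMI in the combination, YKL-5-124, anti-PD-1 and control libraries, against 31.7%, 31.3%, 27.1% and 32.9% before thinning. For the type I list the thinned shares were 3.33%, 3.15%, 4.61% and 3.16%.

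**Figure D3:**
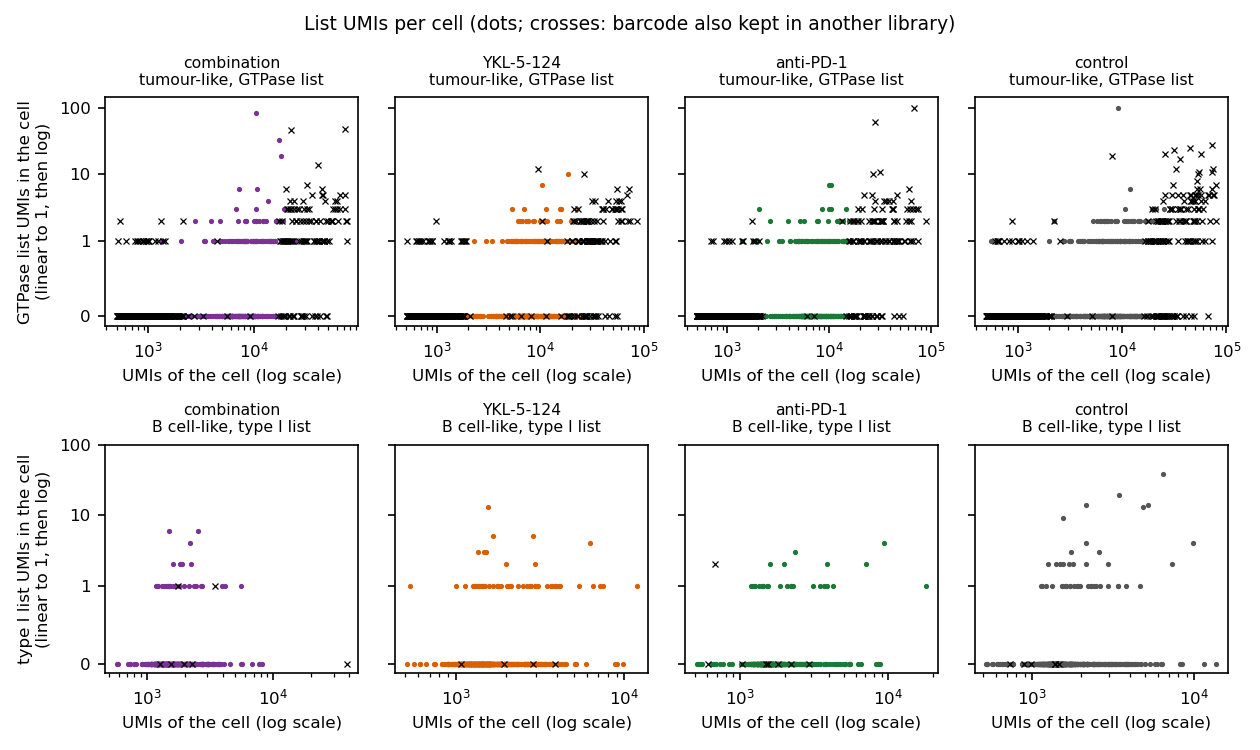
UMIs of the GTPase list per tumour-like cell (top row) and of the type I list per B cell-like cell (bottom row) against the UMIs of the cell, 1 panel per library, with crosses for barcodes also kept in another library. Tumour-like cells with the most GTPase UMIs reach 82, 12, 97 and 99 in the combination, YKL-5-124, anti-PD-1 and control panels, and the deepest and shallowest tumour-like barcodes are mostly crosses. In B cell-like cells the control panel holds the highest cell, with 38 UMIs.

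T cell-like cells had the summed GTPase list lower in all 3 treated libraries than in control, at similar ratios. The ratio to control was 0.830 in the combination (0.763 to 0.902), 0.798 in YKL-5-124 (0.724 to 0.879) and 0.792 in anti-PD-1 (0.714 to 0.879). Gbp2 was at 69.5, 85.1, 77.5 and 114 CPM in the combination, YKL-5-124, anti-PD-1 and control libraries, and passed the size rule in the combination at 0.607 of control. Iigp1 was at 12.3, 8.68, 14.6 and 22.9 CPM, and passed in YKL-5-124 at 0.379. Control was the highest library for both. Free RNA held Iigp1 at 15.1, 8.39, 12.7 and 15.7 CPM, near its treated values and also lowest in YKL-5-124. The part of free RNA in them was not tested. Igtp followed the same order of treated below control, at 106, 101, 88.5 and 127 CPM, as did Irgm1 at 21.9, 23.7, 28.5 and 31.3 CPM. Gbp7 had 81.8, 72.4, 73.1 and 78.2 CPM and Ifi47, outside the list, had 176, 192, 210 and 200 CPM, with no common direction. T cell-like cells with at least 10 GTPase UMIs numbered 8, 8, 3 and 13 in the combination, YKL-5-124, anti-PD-1 and control libraries, and held 7.59%, 15.2%, 8.75% and 18.4% of the list's UMIs. The share of cells with any GTPase UMI was 58.0%, 51.9%, 53.3% and 50.6% in that order, so that control was not higher by that measure. Without the 5 highest cells of each library the ratios to control were 0.871, 0.782 and 0.774. Over the alternative settings the ratio of the GTPase list to control lay between 0.782 and 0.929 in the combination, 0.739 and 0.865 in YKL-5-124 and 0.756 and 0.808 in anti-PD-1.

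CD8 T cell-like cells, gated by Cd8a or Cd8b1 without Cd4, showed the same list at 396, 394, 398 and 543 CPM in 371, 266, 255 and 320 cells. Their ratios to control were 0.729 (0.641 to 0.829), 0.726 (0.629 to 0.837) and 0.732 (0.629 to 0.850) in the combination, YKL-5-124 and anti-PD-1. The treated libraries lay within a few CPM of each other and below control.

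Socs1, the feedback inhibitor that blocks Jak kinases downstream of interferon gamma and other cytokines, went the other way from the summed GTPase list in T cell-like cells. It was at 54.2, 45.7, 56.3 and 19.5 CPM in the combination, YKL-5-124, anti-PD-1 and control libraries (163, 79, 77 and 35 UMIs). The ratio to control was 2.77 (1.92 to 4.12), 2.34 (1.55 to 3.59) and 2.88 (1.91 to 4.43). All treated libraries lay above control, and the 1.5-fold rule was passed in every alternative setting, with log2 ratios from 1.06 to 1.51, from 0.83 to 1.19 and from 1.00 to 1.48. In CD8 T cell-like cells it was at 56.0, 32.9, 60.2 and 17.6 CPM, and in CD4 T cell-like cells at 45.3, 76.4, 52.5 and 33.5 CPM. Free RNA held it at 11.02, 6.99, 5.23 and 5.03 CPM, below every T cell-like value. Ifng, the gene of interferon gamma, was at 18.0, 25.5, 17.5 and 23.4 CPM in T cell-like cells and passed in no treatment.

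Ifitm3 was the measured member with the largest ratio to control in T cell-like cells of the combination and YKL-5-124, and its level moved with markers of another lineage. It was at 102, 67.2, 39.5 and 21.8 CPM in the combination, YKL-5-124, anti-PD-1 and control libraries, or 4.67, 3.08 and 1.81 times control. Without the cell that held most of it in each library, anti-PD-1 no longer passed (log2 ratio 0.55), and YKL-5-124, where that cell held 40 of 116 UMIs, was at 44.2 CPM. The 12 monocyte or macrophage markers summed to 252, 233, 129 and 107 CPM in the same T cell-like cells, in the same order of libraries. None of the 12 was at 0. In T cell-like cells without a UMI of any of the 12 (664, 457, 435 and 668 cells) Ifitm3 was at 48.0, 25.02, 20.3 and 21.0 CPM, so that anti-PD-1 no longer stood above control. Free RNA held Ifitm3 at 713, 695, 471 and 438 CPM, above every T cell-like value and in the same order. The part of free RNA and of other cells in these values was not tested. Socs1 in these cells was at 64.6, 49.1, 59.9 and 16.1 CPM, and the GTPase list at 0.837, 0.770 and 0.782 of control.

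Type I genes in T cell-like cells came to 212.5, 216.5, 147.7 and 177.0 CPM in the combination, YKL-5-124, anti-PD-1 and control libraries. Their ratios to control were 1.20 (1.05 to 1.38), 1.22 (1.05 to 1.43) and 0.835 (0.696 to 0.999). In cells without a monocyte or macrophage marker UMI they were 0.852 (0.720 to 1.01), 0.854 (0.701 to 1.04) and 0.605 (0.484 to 0.753), which turns the direction for the combination and YKL-5-124. In CD8 T cell-like cells the ratios were 0.844, 0.881 and 0.672 (0.518 to 0.869). A few cells weighed heavily, since the 5 highest held 26.3%, 35.3%, 29.2% and 26.2% of the list's UMIs. In CD4 T cell-like cells the list was at 305, 644, 169 and 268 CPM in 157, 88, 70 and 94 cells, and a single cell held 60.1%, 50%, 24.1% and 54.2% of its UMIs. Without that cell of each library the ratios to control were 0.981 (0.598 to 1.67), 2.75 (1.66 to 4.72) and 1.03 (0.546 to 1.96). In CD4 T cell-like cells without a monocyte or macrophage marker UMI they were 0.440 (0.268 to 0.714), 0.959 (0.574 to 1.58) and 0.286 (0.123 to 0.595). Among the genes, Ifit1 was at 38.2, 54.4, 26.3 and 24.6 CPM and passed in YKL-5-124 at 2.22 times control. There 1 cell held 36 of the 94 UMIs, and without the highest cell of each library Ifit1 did not pass (log2 ratio 0.41). Isg15 was at 104, 83.4, 68.7 and 81.5 CPM and Ifit3 at 36.6, 38.2, 26.3 and 37.4 CPM, and neither passed. Isg15 was no higher in them than in free RNA, where it was at 116, 89.2, 74.5 and 74.9 CPM, except in control. In cells thinned to 800 UMIs, with 26, 11, 20 and 20 shallower cells left out, 11.3%, 10.1%, 7.52% and 8.54% held a type I UMI and 28.2%, 26.8%, 25.6% and 28.2% a GTPase UMI.

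Of the 38 members measured in T cell-like cells, 2 passed higher and 1 lower in the combination, 3 higher and 1 lower in YKL-5-124, and 2 higher and 0 lower in anti-PD-1. Of all 6756 genes, 8.1%, 6.59% and 3.3% passed in either direction in these 3 comparisons, so the number of members that passed is near the background. Irf1 was at 80.8, 109, 98.0 and 91.6 CPM in the combination, YKL-5-124, anti-PD-1 and control libraries, Irf7 at 77.5, 76.4, 69.5 and 71.5 CPM and Bst2 at 175, 153, 165 and 159 CPM. None of these passed. The median log2 ratio of the members was 0.02, -0.09 and -0.13 in the combination, YKL-5-124 and anti-PD-1, against 0.07, 0.09 and 0.03 for all genes.

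**Figure D4:**
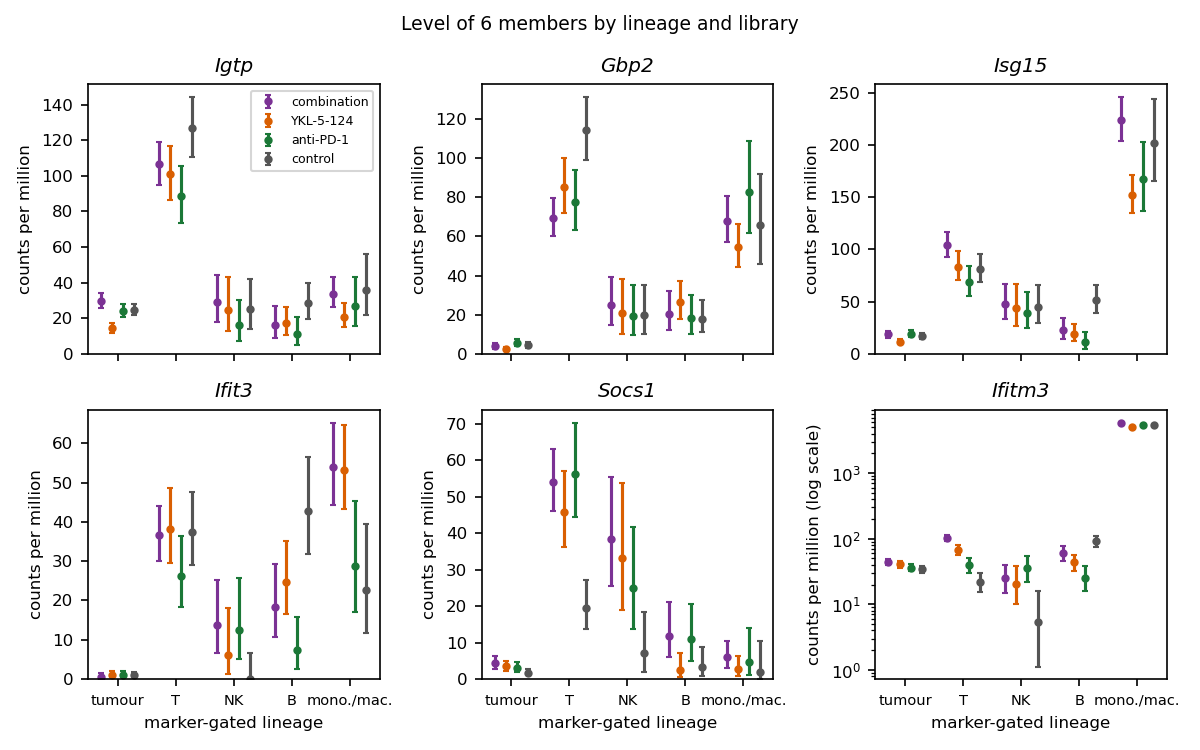
Level of 6 members in CPM by marker-gated lineage and library, with exact Poisson 95% intervals for counting error (Ifitm3 on a log axis). Socs1 in T cell-like cells lies between 45.7 and 56.3 in the treated libraries and at 19.5 in control, Gbp2 in T cell-like cells is highest in control at 114, and Isg15 in B cell-like cells is highest in control at 51.4.

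NK cell-like cells shared the Socs1 difference on far fewer UMIs. Socs1 was at 38.4, 33.1, 24.9 and 7.19 CPM in the combination, YKL-5-124, anti-PD-1 and control libraries, from 28, 16, 14 and 4 UMIs. The ratio to control was 5.34 (1.87 to 21.0), 4.60 (1.48 to 18.9) and 3.46 (1.09 to 14.4), and the rule was passed in every alternative setting. Control lay near the free RNA level of the gene. Irf1 went the other way, at 60.4, 64.2, 78.2 and 128 CPM, and passed lower in each treatment at 0.473 (0.317 to 0.698), 0.502 (0.318 to 0.776) and 0.613 (0.411 to 0.905) of control. Over the alternative settings Irf1 passed throughout in the combination and YKL-5-124, but not in anti-PD-1, where its smallest drop was a log2 ratio of -0.47. Free RNA held Irf1 at 66.1 CPM in the combination, above the NK cell-like value there. Ifng stood at 89.2, 145, 137 and 169 CPM in these cells, and passed lower in the combination at 0.53 of control.

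Other members in NK cell-like cells passed on small counts. Ifitm3 was at 24.7, 20.7, 35.6 and 5.40 CPM in the combination, YKL-5-124, anti-PD-1 and control libraries (18, 10, 20 and 3 UMIs) and passed higher in each treatment, at 4.58 (1.34 to 24.3), 3.84 (0.988 to 21.7) and 6.59 (1.95 to 34.6) times control, though below its free RNA level throughout. In anti-PD-1 1 cell held 9 of the 20 UMIs, and without it the level was 19.7 CPM. The combination was higher in Rtp4, a chaperone induced by type I interferon, at 49.4 CPM against 14.4 CPM in control, and in Trim30a, Bst2 and Irgm1 at 1.72, 1.66 and 3.05 times control, where Irgm1 had 12 against 3 UMIs and an interval of 0.824 to 16.9. Bst2 did not pass without the highest cell of each library (log2 ratio 0.57), at 77.1 CPM in the combination and 48.7 CPM in control. Free RNA held Bst2 at 156 and 130 CPM and Rtp4 at 65.0 and 41.7 CPM in those libraries, above their NK cell-like levels. Trim30a lay above its free RNA level in both. The part of free RNA in these values was not tested. Anti-PD-1 was higher in Parp9 and Gbp9 at 2.59 and 1.87 times control, and YKL-5-124 was lower in Usp18 at 0.266 of control (0.0485 to 0.966), on 3 against 13 UMIs. Of 30 measured members, 6 passed higher and 1 lower in the combination, 2 and 2 in YKL-5-124, and 4 and 1 in anti-PD-1. In 6808 genes 11.2%, 13.2% and 12.7% passed in either direction. The lists as wholes were close to control, with GTPases at 252.5, 279.4, 273.8 and 251.8 CPM and type I genes at 90.6, 68.3, 78.2 and 68.3 CPM, and all 6 ratio intervals included 1. In cells with at least 2000 UMIs the type I ratios were 2.18, 2.12 and 4.21 in the combination, YKL-5-124 and anti-PD-1, and without cells holding a monocyte or macrophage marker UMI the combination was at 2.31. The type I list there lay below its free RNA level in each library.

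B cell-like cells had the type I genes lower in all 3 treated libraries. The list was at 56.1, 69.0, 46.1 and 141 CPM in the combination, YKL-5-124, anti-PD-1 and control libraries, or 0.397 (0.285 to 0.545), 0.488 (0.371 to 0.639) and 0.326 (0.223 to 0.467) of control. Isg15 was at 22.7, 18.9, 10.9 and 51.4 CPM, and Ifit3 was at 18.3, 24.6, 7.28 and 42.8 CPM. Both passed lower in every treatment, and control stood above the treated libraries without overlap of the intervals for Isg15. Ifit3 in YKL-5-124 did not pass without the highest cell of each library (log2 ratio -0.53). Usp18 had 11.9, 7.39, 4.85 and 26.6 CPM and passed lower in each too, as a further gene of the type I response. Over the alternative settings all of these genes passed throughout only in anti-PD-1. The smallest drops in the combination were log2 ratios of -0.35 for Isg15, -0.43 for Ifit3 and -0.34 for Usp18. In YKL-5-124 they were -0.73, -0.003 and -0.57 in that order. Without the 5 cells highest in Isg15 of each library, Isg15 was at 16.4, 9.15, 3.71 and 20.1 CPM. Ifitm3 was at 60.4, 43.5, 25.5 and 90.8 CPM and passed lower in YKL-5-124 and anti-PD-1, with 13 of 21 UMIs in 1 cell of anti-PD-1 and 38 of 106 in 1 cell of control. Without those cells it was at 9.75 CPM in anti-PD-1 and 58.7 CPM in control. The GTPase list moved less, at 164, 198, 171 and 208 CPM, with ratios of 0.788 (0.639 to 0.969), 0.951 and 0.822.

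Members that passed lower in B cell-like cells numbered 5, 4 and 10 of 29 in the combination, YKL-5-124 and anti-PD-1, where 2.86%, 1.66% and 2.65% of all 6565 genes passed lower. One member passed higher in anti-PD-1, Gbp3, at 55.8 CPM against 29.1 CPM in control, and 0 passed higher in the other treatments. In either direction 7.02%, 5.12% and 6.41% of genes passed. In anti-PD-1 the lower members also took in Ifi47 at 26.7 CPM against 67.7 CPM in control, Igtp at 10.9 against 28.3 CPM, Rtp4 at 12.1 against 31.7 CPM, Bst2 at 69.2 against 114 CPM, Trim30a at 27.9 against 52.2 CPM and Gbp4 at 15.8 against 32.5 CPM. In anti-PD-1 and control, free RNA held Rtp4 at 46.4 and 41.7 CPM and Bst2 at 135 and 130 CPM. It held Igtp at 40.5 CPM in both. These levels lay above the B cell-like values of the same genes. Free RNA also exceeded the anti-PD-1 values, though not the control values, of Ifi47 (83.0 CPM) and Trim30a (34.3 CPM). Gbp4 lay above its free RNA level in both. The part of free RNA in these values was not tested. Samhd1, the most abundant member, passed in no treatment. The median log2 ratio of the members was -0.13, -0.19 and -0.35, against 0.02, 0.06 and 0.00 for all genes.

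The type I difference in B cell-like cells lay in few control cells. The list had 52, 84, 38 and 165 UMIs in the combination, YKL-5-124, anti-PD-1 and control libraries, and cells with at least 10 of them numbered 0, 1, 0 and 5. The 5 control cells held 98 of the 165 UMIs, at a median depth of 4830 UMIs against 1512 UMIs in the other control cells. They also held 11 UMIs of monocyte or macrophage markers and 3 of endothelial markers, whose part was not tested. The share of cells with any type I UMI was 6.81%, 7.58%, 6.60% and 7.05%, and at 800 UMIs per cell it was 3.45%, 3.47%, 2.43% and 3.56%, so that control did not stand apart in the number of cells. Without the 5 highest cells of each library the ratios to control were 0.597, 0.767 and 0.530, and with cells weighted equally they were 0.619, 0.702 and 0.494. In cells with at least 2000 UMIs they were 0.207, 0.289 and 0.228, and with lineages from clusters YKL-5-124 was at 0.805 of control. All of these ratios lay below 1, nearer to it without the highest cells or with equal weights and further from it in the deeper cells. Summed over all cells, only control exceeded the type I level of free RNA, and Isg15 lay below its free RNA level in every library. The part of free RNA in these values was not tested.

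Monocyte- or macrophage-like cells had more of the type I list in the combination than in any other library, at 1.21 times control (1.05 to 1.40), 1.33 times YKL-5-124 (1.21 to 1.46) and 1.36 times anti-PD-1 (1.19 to 1.57). YKL-5-124 and anti-PD-1 stood at 0.908 and 0.887 of control, with intervals that included 1. The GTPase list was at 263, 194, 295 and 246 CPM in the combination, YKL-5-124, anti-PD-1 and control libraries, with YKL-5-124 lowest at 0.791 of control (0.646 to 0.974) and the combination at 1.36 times YKL-5-124 (1.18 to 1.56). Isg15 was at 224, 152, 167 and 202 CPM, Oas1a at 134, 100, 131 and 128 CPM and Irf7 at 300, 270, 282 and 365 CPM. In cells thinned to 800 UMIs, with 8, 3, 3 and 4 shallower cells left out, 24.7%, 18.6%, 24.6% and 19.1% held a type I UMI, so that anti-PD-1 equalled the combination by this measure.

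Ifit3 and Cmpk2 passed higher in both libraries with YKL-5-124, and Irf1 passed lower in both. Ifit3 was at 54.0, 53.1, 28.7 and 22.7 CPM in the combination, YKL-5-124, anti-PD-1 and control libraries, higher in the pair with YKL-5-124. In YKL-5-124 5 cells held 62 of its 99 UMIs and in the combination 5 cells held 52 of 107, against 12 of 18 in anti-PD-1 and 9 of 12 in control. Without the highest cell of each library Ifit3 was at 45, 36.7, 20.9 and 15.1 CPM and still passed in both, but with cells weighted equally it passed in neither (log2 ratios 0.57 and 0.35). The share of cells with an Ifit3 UMI was 7.83%, 6.81%, 6.04% and 4.97%. Cmpk2 was at 20.7, 23.6, 6.38 and 3.78 CPM, from 41, 44, 4 and 2 UMIs, or 5.48 (1.42 to 46.8) and 6.25 (1.63 to 53.2) times control in the combination and YKL-5-124. Irf1 was at 49.0, 52.6, 71.8 and 86.9 CPM, which is 0.564 and 0.605 of control in the combination and YKL-5-124. Ifit1 passed higher in YKL-5-124 at 2.05 times control on 36 against 5 UMIs, with an interval that included 1, and with cells weighted equally its log2 ratio was -0.13. Gbp7 passed lower in YKL-5-124 at 19.3 against 35.9 CPM, and Rsad2, the antiviral enzyme viperin, passed lower in anti-PD-1 at 12.8 against 24.6 CPM, though not without the highest cell of each library (log2 ratio -0.45). Of 34 measured members, 2 passed higher and 1 lower in the combination, 3 and 2 in YKL-5-124, and 0 and 1 in anti-PD-1. Among 6414 genes 9.53%, 10.5% and 13.3% passed, and 3.18% passed between the combination and YKL-5-124, where 1 member was higher.

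The mixture of monocyte types differed between libraries, and the members were read within types. Nonclassical monocytes, patrolling cells marked by Treml4 and Ace, numbered 260, 193, 89 and 81 cells in the combination, YKL-5-124, anti-PD-1 and control libraries. Isg15 was at 77.9, 81.5, 82.8 and 75.3 CPM in them, and over all these cells every interval of a list ratio to control included 1. The type I list was at 269, 222, 282 and 195 CPM in that order. Without the highest cell of each library its ratios to control were 1.56 (1.10 to 2.27), 1.26 (0.873 to 1.87) and 1.43 (0.925 to 2.22). Of these only the interval of the combination, given first, excluded 1. Classical monocytes, marked by Ccr2, F13a1 and Ly6c2 and recruited from blood in inflammation, numbered 177, 205, 52 and 35. Isg15 was at 333, 170, 244 and 394 CPM there, above the nonclassical level in each library.

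Within classical monocytes YKL-5-124 stood below control for most members. Of 34 measured members 19 passed lower, against 11.2% of 6201 genes, and 2 passed higher, Ifit1 on 21 against 1 UMI and Cmpk2 on 34 against 0 UMIs. The type I list was at 791, 442, 505 and 816 CPM in the combination, YKL-5-124, anti-PD-1 and control libraries, which is 0.969, 0.542 (0.441 to 0.670) and 0.619 (0.475 to 0.806) of control. The GTPase list was at 349, 226, 387 and 408 CPM, with YKL-5-124 at 0.553 of control (0.413 to 0.751). Irf7 was at 426, 331, 383 and 719 CPM and Oas1a at 161, 110, 148 and 242 CPM, and YKL-5-124 was the lowest library for each of these genes. The control values rest on 35 cells. Against YKL-5-124 the combination passed higher in 13 of 34 members and lower in 0, where 4.93% of genes passed higher, with the type I list 1.79 times (1.58 to 2.03) and the GTPase list 1.55 times (1.29 to 1.86) the YKL-5-124 level.

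**Figure D5:**
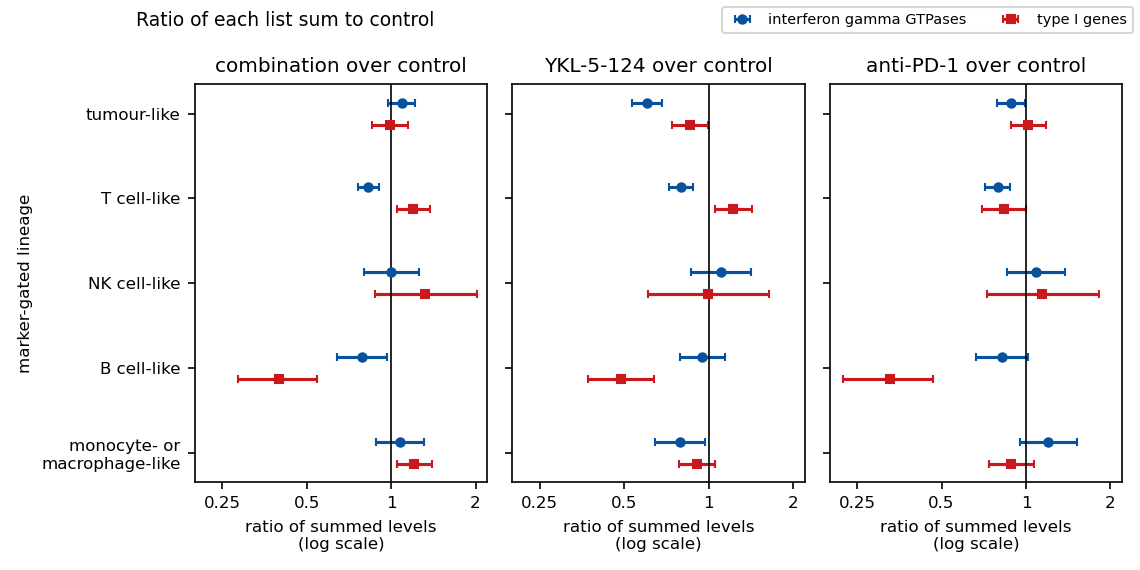
Ratio of the summed GTPase list (circles) and type I list (squares) of each treated library to control on a log axis, by marker-gated lineage, with exact conditional binomial 95% intervals for counting error. The type I squares of B cell-like cells lie furthest below 1, at 0.397, 0.488 and 0.326 in the combination, YKL-5-124 and anti-PD-1 panels, and the GTPase circles of T cell-like cells lie below 1 in every panel.

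Set side by side, the 2 lists parted in 3 lineages. In T cell-like cells the summed GTPase list was below control in the combination and YKL-5-124 while the type I list was above it (over all gated cells, and not in those without a monocyte or macrophage marker UMI), and in B cell-like cells the type I list lay further below control than the GTPase list in each treatment. In tumour-like cells YKL-5-124 had the GTPases further below control than the type I list. In the plot of list ratios the intervals of each of these pairs do not overlap. Both lists of tumour-like cells lay below their free RNA level in every library, as did the type I list of treated B cell-like cells. With cells weighted equally the GTPase ratio of tumour-like cells in YKL-5-124 was 0.855. The lists share the 4 libraries and many cells, and the difference between them was not tested.

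Neutrophil-like cells (172, 646, 84 and 91 cells) had too few cells in 2 libraries for the comparison, but their type I level was high. The list was at 1141, 411, 648 and 1729 CPM in the combination, YKL-5-124, anti-PD-1 and control libraries, with Isg15 at 761, 277, 342 and 1383 CPM. YKL-5-124, the library with the most neutrophil-like cells, was the lowest. At 800 UMIs per cell 38.5%, 21.3%, 35.6% and 41.3% held a type I UMI.

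Genes of the interferon pathway outside the 43 were read from lists of ligands, receptors and kinases, factors and other induced genes. Of 5 ligands only Ifng reached the measured level, in T and NK cell-like cells. Of 8 receptors and kinases, 5, 7, 5, 7 and 7 were measured in tumour-like, T cell-like, NK cell-like, B cell-like and monocyte- or macrophage-like cells. Ifnar1, a chain of the type I receptor, was at 62.1, 67.6, 63.8 and 108 CPM in monocyte- or macrophage-like cells of the combination, YKL-5-124, anti-PD-1 and control libraries, and passed lower in each treatment. In B cell-like cells it was at 78.8 CPM in the combination against 138 CPM in control. Ifngr2, a chain of the interferon gamma receptor, was at 93.4 CPM in T cell-like cells of the combination against 146 CPM in control. Irf8, a factor of myeloid cells, was at 136 CPM in monocyte- or macrophage-like cells of the combination against 223 CPM in control. Socs3, a feedback inhibitor of cytokine signalling related to Socs1, was at 475 CPM in anti-PD-1 against 296 CPM in control in the same lineage. Among 36 further induced genes, of which 34 were found by symbol, Ifi27l2a was at 1004 CPM in T cell-like cells of the combination against 496 CPM in control, and none passed in tumour-like cells.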

How the data were processed

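Each deposited matrix gives UMI counts, unnormalized and for all barcodes, which the authors made with bcl2fastq and Cell Ranger, per the submitters' processing notes, and software version 3.0.0, per the file headers. The notes name hg19, whereas 0 of the gene IDs are other than mouse Ensembl IDs, and no mouse build is named. The 4 samples were grouped by the labels, 1 per group. The members and all lists were chosen with earlier results of these data known. Cells were gated by fixed markers (at least 2 detected, the next lineage at no more than 0.5 of the top share). UMIs were summed per lineage and library and scaled to CPM. Levels have exact Poisson intervals, shares exact binomial intervals and ratios exact conditional binomial intervals, all at 95%. Only the ratio intervals were tried on simulated counts. These were Poisson draws from the summed counts of control T cell-like cells. They cannot show how the intervals fare where UMIs gather in few cells. Doublets were handled only by requiring 1 lineage per cell, with Scrublet removal as an alternative. Sub-lineages needed at least 30 cells. Genes were named by a fixed rule: a preset list of 12 members, the 3 highest in a lineage, and the 4 largest ratios of each treated group against control, with at least 30 UMIs. The plasmacytoid dendritic-like cells, the high tumour-like and B cell-like cells and the genes in them were singled out after their values were seen. Alternatives were other gates, clusters, filters, weights, scalings, pseudocounts and thinning depths. Software was Scanpy 1.11.5 and leidenalg 0.10.2 for clusters, and SciPy 1.17.1, pandas 2.3.3 and NumPy 2.4.6 under Python 3.11.15.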

Additional observations from a re-analysis of the deposited data

Results flagged for a closer look

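The type I list differed in direction between lineages under the same treatment, with counting intervals on opposite sides of 1. In the combination its ratio to control was 1.20 in T cell-like cells and 1.21 in monocyte- or macrophage-like cells, against 0.397 in B cell-like cells. In YKL-5-124 it was 1.22 in T cell-like cells, against 0.858 in tumour-like cells and 0.488 in B cell-like cells. The type I list lay below its free RNA level in tumour-like cells of every library and in B cell-like cells of every treated library. By the reading used here, those levels are not taken as expression by the cells themselves. These differences between lineages were not tested, since each group is 1 library. The T cell-like values turned to 0.852 in the combination and 0.854 in YKL-5-124 in cells without a monocyte or macrophage marker UMI, and 98 of the 165 control UMIs of B cell-like cells lay in 5 cells.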

How the results depend on the processing

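Of 138 recomputed list ratios to control in tumour-like and T cell-like cells, 122 stayed within the counting interval of the reported value. In tumour-like cells the others were GTPases in anti-PD-1 (0.678 with cells weighted equally, 0.702 without shared barcodes, 0.726 without the 5 highest cells), in YKL-5-124 (0.855 weighted equally, 0.703 without the 5 highest cells) and in the combination (1.42 without shared barcodes, 0.884 without the 5 highest cells), and type I genes in anti-PD-1 (1.19 weighted equally, 0.825 without shared barcodes). In T cell-like cells the type I ratio was 1.03 in the combination, 0.979 in YKL-5-124 and 0.680 in anti-PD-1 when lineages came from clusters, and 0.852, 0.854 and 0.605 without cells holding a monocyte or macrophage marker UMI, and the GTPase ratio in the combination was 0.929 with cells weighted equally. Log2 ratios changed sign for Ifitm3 in T cell-like cells of anti-PD-1 (-0.032 without cells holding a monocyte or macrophage marker UMI) and for Ifit1 in monocyte- or macrophage-like cells of YKL-5-124 (-0.13 weighted equally). Where no value shows it, the cause was not tested. Of the other values, 619 of 673 for single members stayed past the 1.5-fold rule, 404 of 432 for other list sums stayed within their intervals, and 522 of 670 counts of members that passed stayed within 1.5 times. The settings without shared barcodes, without barcodes 10 times deeper elsewhere, without the 5 highest cells, without the highest cell of a gene and without monocyte or macrophage marker UMIs were chosen after seeing the data. No paired analysis was possible because each group has 1 library. The same lack of replicates limits every comparison.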
